A study of Mus musculus with 11 samples.

Results

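Axon guidance genes encode the secreted and membrane-bound cues that steer growing neurites, and the receptors that read them. The set described here held 68 of the 53801 genes in the deposited tables: every protein-coding gene whose symbol names a semaphorin, plexin, neuropilin, Eph receptor, ephrin, Slit, Robo, netrin or Unc5 protein, plus Dcc. Symbols and positions came from the GENCODE mouse annotation, and membership rested on the symbol alone, with no measured value used. The ligand side held 34 genes (20 semaphorins, 8 ephrins, 3 Slits and the netrins Ntn1, Ntn4 and Ntn5), and the receptor side the other 34 (9 plexins, 2 neuropilins, 14 Eph receptors, 4 Robos, Dcc and 4 Unc5 genes).

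RNA was sequenced from primary neural stem cells (NSCs) of mouse embryonic hippocampus, with no transgene or deletion named in the labels. The 4 groups were proliferation medium with vehicle (EtOH, 3 libraries), proliferation medium with 1 µM 4HBP (3), differentiation medium with vehicle (2) and differentiation medium with 1 µM 4HBP (3), and exposure lasted 7 days in every group. EGF and bFGF, mitogens of NSCs, were present in proliferation medium and absent from differentiation medium, which had a higher percentage of B27. The labels give the compound as 4-Hydroxybenzoic acid, whereas the published methods give 4-hydroxybenzophenone, a metabolite of benzophenone. The labels do not say whether replicates were separate cultures or animals, so the p-values below measure the spread between these libraries only, which may be technical.

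Semaphorins signal mainly through plexins, and the secreted class 3 semaphorins bind them together with neuropilins. Ephrins are tethered to the membrane and bind Eph receptor tyrosine kinases on the neighbouring cell, Slits bind Robo receptors, and netrins attract through Dcc or repel through Unc5 receptors. Outside of axon growth, members of all these families act on the migration, spacing and division of neural progenitors and of oligodendrocyte precursors.

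Each library held between 20822921 and 23438463 expected counts, of which the 68 members took 0.264 to 0.293% in proliferation medium and 0.383 to 0.395% in differentiation medium. At this depth 3 counts, the least taken as detectable, equal 0.128 to 0.144 CPM (expected counts scaled by the library total), and 65 to 68 members were above 0 in each library. The NSC label was checked against markers. The 8 NSC markers, such as Nes and Sox2, summed to 4639 to 5431 CPM in proliferation and 1841 to 1884 CPM in differentiation medium. Astrocyte markers summed to 6377 to 10830 CPM over both media, with group means of 2611 to 2826 CPM for Slc1a3 and 1475 to 2306 CPM for Gfap. Neuron markers summed to 974 to 1130 CPM, mostly through Map2, with group means of 669 to 810 CPM. By contrast Rbfox3, Nefl and Stmn2 had group means of at most 4.56 CPM. Such sums over different genes, not corrected for gene length, do not rank the cell types by amount. Markers of several neural cell types were thus present, and in such bulk samples fewer cells of a type and less RNA per cell cannot be told apart. Microglial markers summed to at most 3.63 CPM and endothelial markers to at most 2.56 CPM.

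The bases just before RefSeq's start sites of a few members are shown because the results below turn on these genes. Ntn4 had the smallest adjusted p for 4HBP in proliferation medium, Ephb3 and Plxna3 were lower with 4HBP in proliferation medium, Plxnb3 was lower with it in differentiation medium, and Sema3a had the largest fall between the media. Sequences are RefSeq's for build GRCm38.p6, all on the plus strand and trimmed to hold no GENCODE exon, at chr10:93640799-93641048 (Ntn4), chr16:21204545-21204754 (Ephb3), chrX:74328816-74329065 (Plxna3), chrX:73756853-73757089 (Plxnb3) and chr5:13396534-13396783 (Sema3a). The stretches of Ephb3, Plxna3 and Plxnb3 end just before the start of the GENCODE gene, whereas those of Ntn4 and Sema3a lie inside the GENCODE gene, in an intron, because GENCODE begins these genes further upstream. GENCODE begins Ntn4 at chr10:93640681, close to its stretch, but Sema3a at chr5:13125414. The Sema3a stretch thus lies far inside the gene, away from its GENCODE start. Capitals mark GC boxes, the letters GGGCGG on either strand, which are bound by Sp family factors.
Ntn4: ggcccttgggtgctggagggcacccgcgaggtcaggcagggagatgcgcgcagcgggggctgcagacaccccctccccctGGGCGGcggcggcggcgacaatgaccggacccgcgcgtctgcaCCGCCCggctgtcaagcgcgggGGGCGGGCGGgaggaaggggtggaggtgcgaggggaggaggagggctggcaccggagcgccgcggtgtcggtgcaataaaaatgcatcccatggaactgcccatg
Ephb3: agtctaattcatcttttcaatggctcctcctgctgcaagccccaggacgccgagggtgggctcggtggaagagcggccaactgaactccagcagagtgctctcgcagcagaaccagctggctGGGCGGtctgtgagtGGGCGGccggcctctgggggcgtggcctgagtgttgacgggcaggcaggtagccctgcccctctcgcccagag
Plxna3: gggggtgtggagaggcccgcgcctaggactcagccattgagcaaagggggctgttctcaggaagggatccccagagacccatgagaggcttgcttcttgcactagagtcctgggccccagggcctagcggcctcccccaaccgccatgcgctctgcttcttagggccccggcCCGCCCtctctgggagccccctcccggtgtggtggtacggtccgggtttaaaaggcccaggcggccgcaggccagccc
Plxnb3: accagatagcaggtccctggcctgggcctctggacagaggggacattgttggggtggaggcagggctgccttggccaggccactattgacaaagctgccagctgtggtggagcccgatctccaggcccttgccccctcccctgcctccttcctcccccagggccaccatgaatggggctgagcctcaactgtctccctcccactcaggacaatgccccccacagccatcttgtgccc
Sema3a: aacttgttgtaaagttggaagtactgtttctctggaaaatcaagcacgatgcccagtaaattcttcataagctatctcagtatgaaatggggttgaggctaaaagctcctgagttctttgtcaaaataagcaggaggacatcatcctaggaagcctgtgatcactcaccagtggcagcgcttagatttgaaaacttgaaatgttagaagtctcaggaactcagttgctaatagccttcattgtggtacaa
The Ntn4 stretch holds 4 GC boxes, of which a pair overlap, and 26 CG dinucleotides in 250 bases, and the Ephb3 stretch holds 2 boxes. That of Plxna3 has 1 box. Those of Plxnb3 and Sema3a have none, and the Sema3a stretch, at 40.8% G and C, has 2 CG dinucleotides.

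RefSeq promoters could be matched for 58 of the 68 members, with 74 start sites between them. In the 250 bases before those sites a GC box was present for 70.3%, against 42.6% of 21262 start sites of protein-coding genes and 32.7% of all 32851 start sites in the table, and the median share of G and C was 64.4%, against 55.6% for protein-coding genes. A TATA box (TATAAA) was found at 2 of the 74, those of Efnb2 and Slit2 (11.6% of protein-coding start sites), and an E-box (CACGTG) at 4, those of Epha8, Robo2, Sema4b and Sema6d (6.63%). The composite element read by ATF4, a transcription factor of the stress response, searched as TGATGNAA, was at 0 of the 74 and at 3.18% of protein-coding start sites. Both strands were searched, and the motifs do not overlap each other in their letters except for repeats of the GC box. These are matches of letters in a window and say nothing about binding.

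Levels of different genes were compared in TPM, which corrects for gene length, and within a medium only, because the mitochondrial transcript mt-Atp8 took 13.0 to 16.0% of all TPM in proliferation medium and 4.48 to 4.79% in differentiation medium. Among the semaphorins, the transmembrane Sema6d had the highest TPM, at a median of 91.4 (range 71.7 to 96.0) over the 6 proliferation libraries and 142 (139 to 145) over the 5 differentiation libraries. Sema6a, a partner of the A-type plexins, stood at 66.7 (63.8 to 69.2) and 73.1 (72.7 to 79.6), with a range below that of Sema6d in either medium. Sema4d, a ligand of Plxnb1, was at 14.6 TPM (12.7 to 16.2) in proliferation medium and at 110 TPM (101 to 115) in differentiation medium, where it lay above the highest Sema6a library. In proliferation medium Sema5b, a transmembrane semaphorin with thrombospondin repeats, was higher than Sema4d, at 40.6 TPM (38.2 to 48.3).

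Plxnb2 had the highest median TPM among the receptors in both media, followed by Plxnd1 and Plxnb1 in proliferation medium and by Plxnb1 and Plxnb3 in differentiation medium. Plxnb2, which takes part in neural progenitor division and migration, reached a median of 61.7 TPM (58.1 to 64.3) in proliferation medium and 117 TPM (113 to 123) in differentiation medium. Plxnb1 stood at 38.3 TPM (30.0 to 59.0) and 104 TPM (101 to 108), and Plxnb3, known from oligodendrocytes, at 26.1 TPM (25.3 to 34.2) and 64.9 TPM (61.1 to 76.3). Over both treatments of proliferation medium the range of Plxnb1 touched those of the other B-type plexins, and in differentiation medium the 3 ranges were apart. By treatment, the means of Plxnb2, Plxnb1 and Plxnb3 in proliferation medium were 61.9, 48.9 and 29.7 TPM with vehicle and 61.1, 32.1 and 26.0 TPM with 4HBP, in the same order. Plxnd1 was, in proliferation medium, at 54.6 TPM (41.5 to 59.1), and in differentiation medium below all of them, at 21.9 TPM (17.6 to 25.7). The neuropilins were lower, Nrp1 at 6.65 TPM (5.85 to 7.18) and Nrp2 at 6.01 TPM (5.17 to 6.58) in proliferation medium, with overlapping ranges.

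Among the Eph receptors of proliferation medium Epha5 (20.8 TPM, 12.8 to 31.8) and Ephb1 (20.0 TPM, 13.5 to 26.0) had the highest medians, ahead of Ephb2 (12.8 TPM, 11.2 to 14.2) and Epha4 (11.2 TPM, 9.33 to 19.6), and these ranges overlapped. In differentiation medium Ephb1 (47.9 TPM, 44.4 to 53.7), Epha4 (34.6 TPM, 34.0 to 36.1) and Epha5 (19.4 TPM, 17.7 to 19.6) were highest, with ranges apart. Among their ligands Efnb3 was the highest, at 10.3 TPM (7.05 to 12.2) and 25.6 TPM (24.9 to 26.7), ahead of Efnb2 and Efna2 in differentiation medium.

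Receptors of Slits and netrins were represented by Robo2, at 27.9 TPM (26.5 to 37.1) in proliferation and 33.5 TPM (31.3 to 36.0) in differentiation medium, and by Unc5b and Unc5c, at 5.13 and 3.34 TPM, then 15.7 and 11.6 TPM. Dcc, the attractive netrin receptor, stood at 5.86 TPM (5.12 to 9.44) and 3.52 TPM (3.40 to 3.91). Ntn1, its classical ligand, was at 35.2 TPM (30.2 to 36.6) and 34.3 TPM (32.1 to 35.2). The basement membrane netrin Ntn4 was below it in every proliferation library, at 8.02 to 17.5 TPM, and above it in every differentiation library, at 37.6 to 44.2 TPM. The 3 Slits were low, with a median of 1.66 TPM for Slit2 and 1.11 TPM for Slit1 in proliferation medium and 0.065 TPM for Slit3. Epha1, Epha8, Robo4, Ntn5 and Sema3g stayed at or under 0.48 CPM in all 11 libraries, and Epha6 was at 0 counts in the 6 proliferation libraries and at most 0.388 CPM in differentiation medium.

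The largest differences among members lay between the media. Of 62 members with enough counts for the test on all 11 libraries, 46 differed between differentiation and proliferation medium in vehicle cultures (32 higher and 14 lower in differentiation medium, edgeR adjusted p under 0.05), or 74.2%, beside 61.4% of all 15920 genes tested. In 4HBP cultures 50 differed (35 higher, 15 lower), or 80.6%, beside 67.2% of all genes. All genes split almost evenly by direction, with 30.8% higher and 30.6% lower in vehicle cultures and 33.3% and 33.8% in 4HBP cultures, and the median log2 fold change was 0.55 for members and 0.03 for all genes (0.62 and 0.01 in 4HBP cultures). The vehicle and 4HBP comparisons use separate libraries, but their tests share a spread estimated from all 11 libraries and so are not independent. In both, 45 members passed in the same direction, 31 higher and 14 lower (26.3% and 26.6% of all genes), and 0 went opposite ways (0.402% of all genes). For all 45 the CPM of the media did not overlap in either comparison. Genes chosen by passing both tests would mostly show this, so it is no further support. Without regard to the test, the CPM of the media did not overlap for 53 of the 62 members tested in vehicle cultures and 51 in 4HBP cultures, beside 76.6% and 70.9% of all genes tested. Because the 6 untested members were too low in all groups, these shares describe the expressed members only. Epha10, Robo3 and Slit3 passed the filter on low counts through libraries of 1 medium only, and without them the counts were 45 of 59 members in vehicle cultures, 47 of 59 in 4HBP cultures and 44 in both. Leaving out vehicle differentiation replicate 1 or 2 gave 42 members in place of 46. Without the first, Efna2, Efnb2, Ephb2, Robo2 and Slit3 did not pass, without the second Efna2, Epha7, Nrp1 and Sema6a did not, with adjusted p values up to 0.0958. In 4HBP cultures Efna5, Efna2, Slit3 and Robo3 each failed to pass in 3 or more of the 6 such fits.

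**Figure D1:**
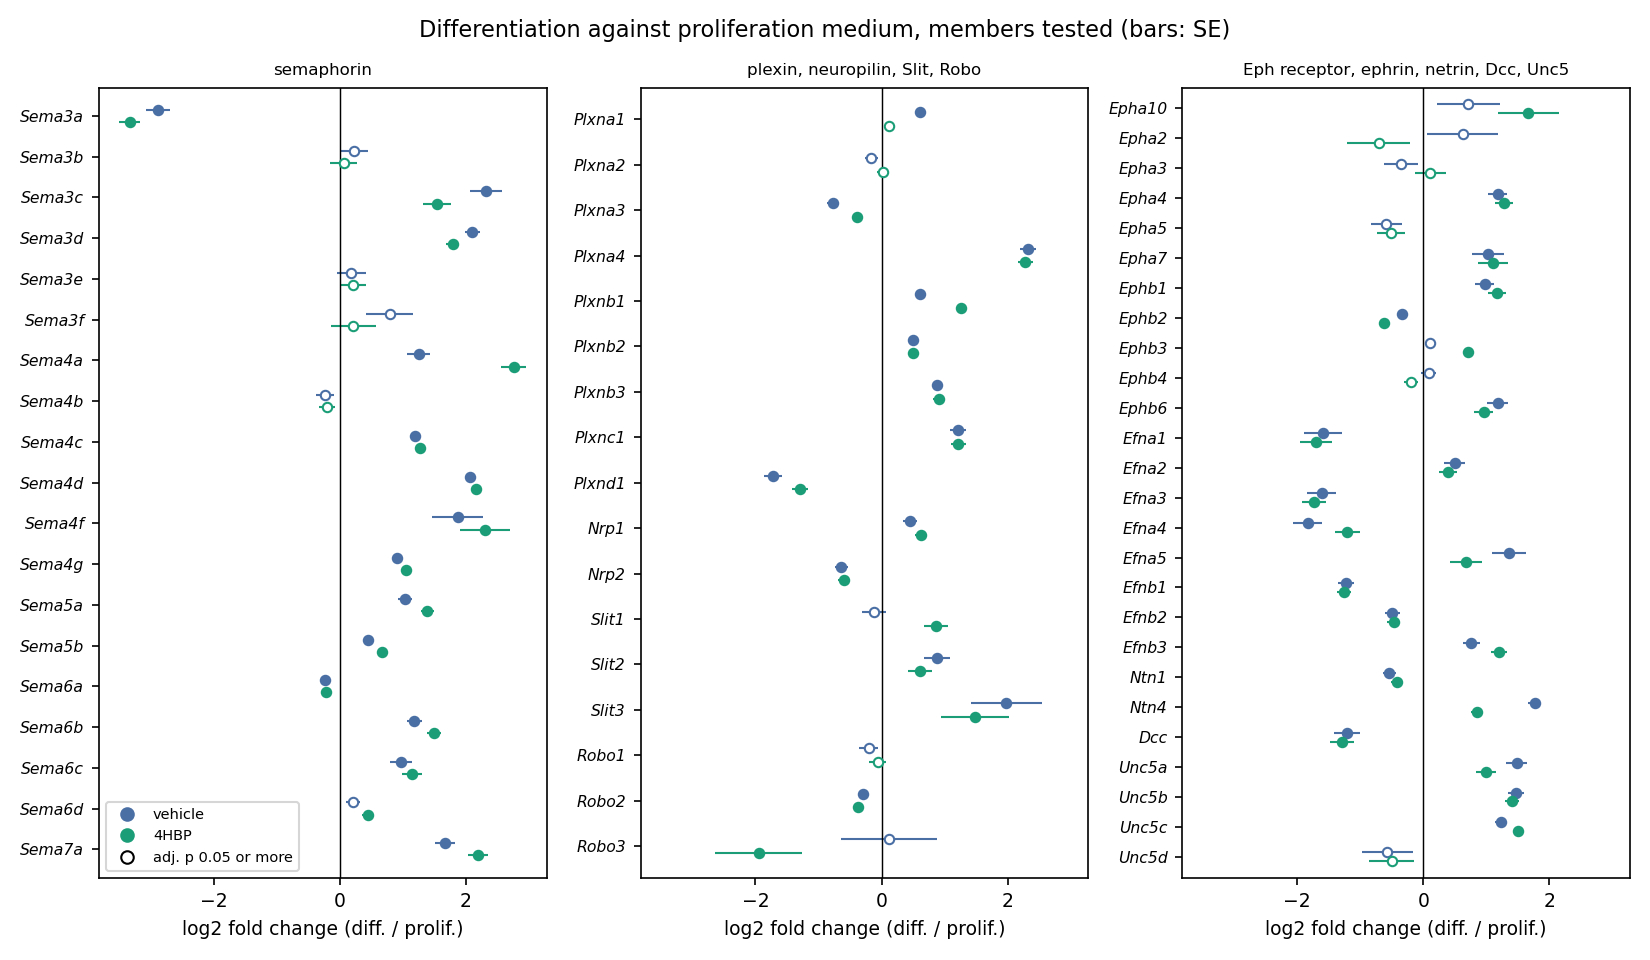
Log2 fold change between differentiation and proliferation medium (x axis) for each of the 62 members tested, grouped by family, in vehicle cultures (blue) and 4HBP cultures (green). Points are edgeR estimates, bars are SE and open points did not pass the test; most semaphorins lie to the right of 0, whereas Sema3a and the ephrins Efna1, Efna3, Efna4 and Efnb1 lie to its left.

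Semaphorins were mostly higher in differentiation medium: 12 of 19 tested passed as higher and 2 as lower in vehicle cultures. Sema4d, a transmembrane class 4 semaphorin made by oligodendrocytes, had 37.2, 33.9 and 37.1 CPM in the vehicle proliferation libraries and 162 and 158 CPM in the vehicle differentiation libraries. The 4HBP libraries gave 34.1, 34.5 and 30.1 CPM and 154, 145 and 154 CPM, so the media were apart without overlap under either treatment. The log2 fold change was 2.06 ± 0.08 (SE) in vehicle cultures (adjusted p = 4.62e-10) and 2.16 ± 0.07 in 4HBP cultures (adjusted p = 1.04e-10). The secreted Sema3d rose by 2.10 ± 0.12 and 1.79 ± 0.11 on the log2 scale, Sema3c by 2.32 ± 0.26 and 1.54 ± 0.22, and Sema7a, a GPI-anchored semaphorin that binds integrins and Plxnc1, by 1.67 ± 0.16 and 2.19 ± 0.15. Sema4a, Sema4f and Sema6b rose in both comparisons as well, Sema4f from at most 0.573 CPM in any proliferation library to more than 2 times that level in every differentiation library.

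Sema3a, the secreted repellent that collapses growth cones through neuropilin-1 and A-type plexins, went the other way. It had 20.6, 13.5 and 18.5 CPM in the vehicle proliferation libraries and 2.42 and 2.60 CPM in the vehicle differentiation libraries, with 19.5, 23.5 and 25.1 CPM and 2.50, 2.24 and 2.16 CPM in the 4HBP libraries. Every proliferation library lay more than 5 times above the highest differentiation library. The log2 fold change was -2.88 ± 0.19 (adjusted p = 5.81e-08) and -3.33 ± 0.17 (adjusted p = 2.56e-09). Sema6a was the other semaphorin lower in both, by 0.24 and 0.22 on the log2 scale. Sema3b, Sema3e, Sema3f and Sema4b passed in neither comparison, with log2 fold changes between -0.23 and 0.79.

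Among semaphorin receptors, 6 of 9 plexins were higher in differentiation medium and 2 lower in vehicle cultures. Plxna4, the plexin that carries Sema3a and class 6 semaphorin signals, had 5.16, 3.90 and 3.87 CPM and then 21.9 and 23.9 CPM in vehicle cultures, and 4.40, 5.38 and 4.89 CPM and then 25.5, 23.7 and 24.1 CPM in 4HBP cultures. Its log2 fold change was 2.32 ± 0.13 and 2.28 ± 0.12. Plxnd1, the receptor of Sema3e, fell by 1.73 ± 0.14 and 1.29 ± 0.13 on the log2 scale: vehicle libraries had 156, 160 and 165 CPM in proliferation medium and 51.6 and 51.2 CPM in differentiation medium. Plxna3 fell by 0.78 ± 0.09 and 0.38 ± 0.08. The neuropilins separated, Nrp1 rising by 0.45 ± 0.11 and 0.62 ± 0.10 and Nrp2 falling by 0.64 ± 0.10 and 0.59 ± 0.09 on the log2 scale. Plxna2 passed in neither comparison.

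All 8 ephrins passed the vehicle comparison, 5 of them lower in differentiation medium. The GPI-anchored Efna1, Efna3 and Efna4 fell by 1.59 ± 0.30, 1.61 ± 0.24 and 1.83 ± 0.23 on the log2 scale in vehicle cultures and by 1.70 ± 0.26, 1.74 ± 0.19 and 1.20 ± 0.20 in 4HBP cultures, from levels that were already low: Efna1 had 2.29 to 4.41 CPM in proliferation medium and 0.867 to 1.07 CPM in differentiation medium. Efnb1, a transmembrane ephrin of progenitors, had 16.0, 15.6 and 19.7 CPM and then 7.53 and 7.94 CPM in vehicle cultures, a fall of 1.23 ± 0.13 on the log2 scale. Efna2, Efna5 and Efnb3 rose, Efnb3 from 26.9, 23.9 and 23.0 CPM to 44.5 and 44.1 CPM (log2 fold change 0.76 ± 0.14).

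Of 11 Eph receptors tested, 5 passed in vehicle cultures (61.4% of all genes) and 7 in 4HBP cultures (67.2% of all genes). Epha4, Epha7, Ephb1 and Ephb6 were higher in differentiation medium in both comparisons, with log2 fold changes between 0.96 and 1.28. Epha4, which binds both ephrin classes, had 47.0, 50.5 and 39.8 CPM and then 109 and 112 CPM in vehicle cultures. Ephb2 was lower in both, by 0.33 and 0.62. Ephb3 differed between media in 4HBP cultures (0.70 ± 0.07, adjusted p = 2.31e-06) and did not pass in vehicle cultures (0.11 ± 0.08, adjusted p = 0.270), and the difference between these effects is the same interaction that is tested below.

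On the netrin side, Ntn4 had 23.8, 20.9 and 27.6 CPM in the vehicle proliferation libraries and 85.5 and 89.0 CPM in the vehicle differentiation libraries, a log2 fold change of 1.77 ± 0.10 (adjusted p = 1.26e-08). In 4HBP cultures the same change was 0.85 ± 0.09. Ntn1 fell by 0.54 ± 0.10 and 0.42 ± 0.09, and Dcc by 1.21 ± 0.21 and 1.29 ± 0.19 on the log2 scale. The dependence receptors Unc5a, Unc5b and Unc5c rose, Unc5b from 16.8, 15.6 and 21.4 CPM to 55.9 and 49.5 CPM in vehicle cultures (1.47 ± 0.12) and Unc5c by 1.23 ± 0.09, whereas Unc5d passed in neither comparison. Thus Dcc and the 3 Unc5 genes changed in opposite directions in both comparisons. Slit2 rose. Slit3 had no more than 0.287 CPM in proliferation medium and 0.867 and 0.640 CPM in the vehicle libraries of differentiation medium (log2 fold change 1.98 ± 0.56), but it passed the filter on low counts only through differentiation medium. Without vehicle differentiation replicate 1 it no longer passed the test (adjusted p = 0.0672), and in 4HBP cultures (1.48 ± 0.54) it passed in 2 of the 6 fits that left out 1 library. Robo2 fell by 0.30 ± 0.08 on the log2 scale in vehicle cultures. Robo3 stood at 0.142, 0.524 and 0.576 CPM in proliferation medium with 4HBP and at 0.334 CPM or less in every other library, and since those higher libraries alone carried it past the filter, its call in 4HBP cultures, which held in 2 of the 6 such fits, is no support for a difference.

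Marker lists moved between the media along with these members. Oligodendrocyte lineage markers summed to 2456 to 4367 CPM in proliferation medium and 8969 to 9434 CPM in differentiation medium, with 6 of 9 higher in vehicle cultures, among them the myelin genes Mbp and Mog. Dividing-cell markers summed to 318 to 779 CPM and then 75.8 to 127 CPM (5 of 5 lower), and 7 of 8 NSC markers were lower. Of 8 astrocyte markers 5 were higher and 3 lower, and of 9 neuron markers 4 were higher and 2 lower. The pericyte and fibroblast list rose from 0.666 to 1.71 CPM to 28.0 to 31.8 CPM, mostly through Pdgfrb (mean of 29.3 CPM in vehicle differentiation libraries), while the collagens Col1a1 and Col1a2 had means of 0.553 and 0.372 CPM there. The part of cell composition in the members' changes was not tested.

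**Figure D2:**
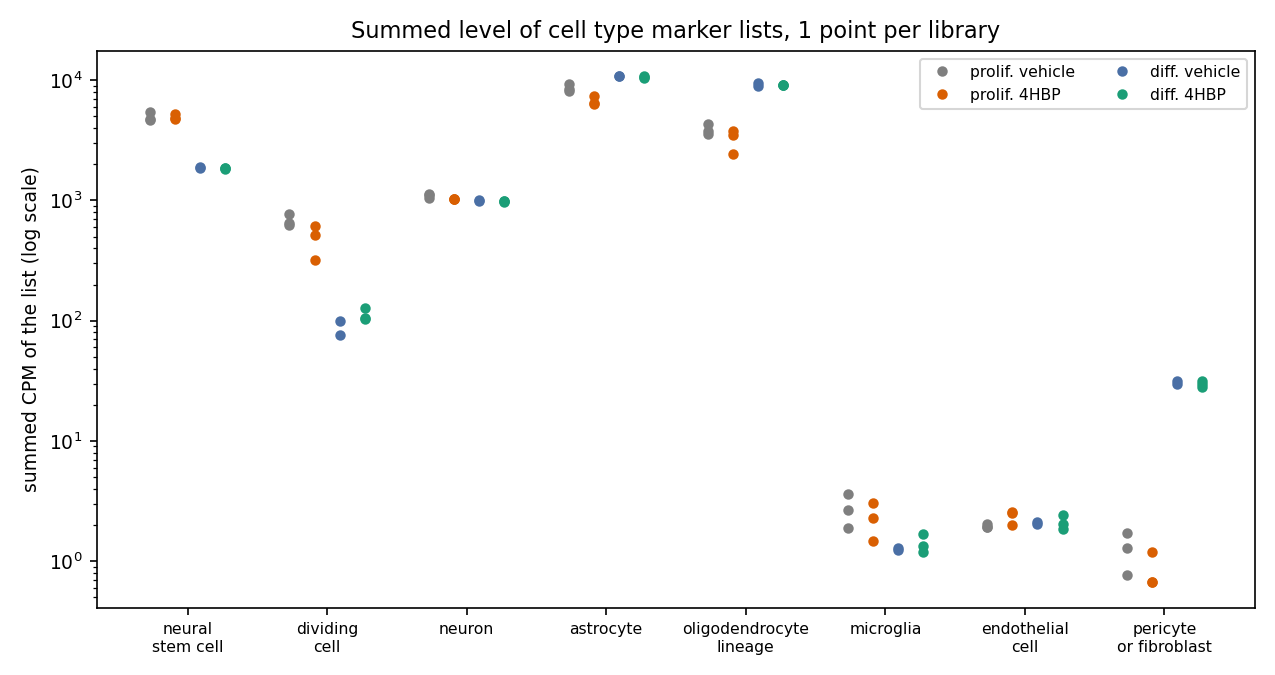
Summed CPM of 8 cell type marker lists (log y axis), 1 point per library, coloured by group. Oligodendrocyte lineage sums are higher and NSC and dividing-cell sums lower in all 5 differentiation libraries than in all 6 proliferation libraries, and astrocyte sums are lower in the 3 4HBP than in the 3 vehicle libraries of proliferation medium.

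Exposure to 4HBP in proliferation medium changed 7 of the 58 members tested there: Ntn4 and Plxna1 were higher, and Sema4a, Plxnb1, Ephb3, Plxna3 and Slit1 lower. That is 12.1% of the members tested, beside 7.43% of 14449 genes, and higher or lower calls stood at 3.74% and 3.69% of all genes. The median log2 fold change was -0.06 for members and 0.00 for all genes. The CPM of the treatment groups did not overlap for 19 of the 68 members, or 16 of the 58 tested, beside 31.9% of all genes tested, so the share of members without overlap was no higher than the background. The members that passed were thus a few of each side, 3 of 30 ligands and 4 of 28 receptors. Leaving out 1 library at a time gave 0 to 9 members in place of 7, with 0 without vehicle replicate 1.

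Ntn4 (ENSMUSG00000020019.4, chr10:93640681-93747207), a laminin-related netrin of basement membranes, had 23.8, 20.9 and 27.6 CPM in the vehicle libraries and 39.3, 45.6 and 40.7 CPM in the 4HBP libraries. Each 4HBP library lay above each vehicle library, and the gap between the groups was wider than the range within either. The log2 fold change was 0.76 ± 0.11 (SE, 3 against 3 libraries, adjusted p = 0.00921). Slit1 (ENSMUSG00000025020.11, chr19:41600257-41743665), a secreted repellent, had 4.97, 5.47 and 4.25 CPM with vehicle and 2.65, 2.38 and 3.26 CPM with 4HBP, and fell by 0.86 ± 0.19 on the log2 scale (adjusted p = 0.0318). Its groups did not overlap.

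Sema4a (ENSMUSG00000028064.17, chr3:88435959-88461182), a transmembrane semaphorin that binds B- and D-type plexins, had the largest fall among the members that passed. The vehicle libraries had 3.73, 3.67 and 2.34 CPM and the 4HBP libraries 1.09, 1.19 and 0.960 CPM. Vehicle replicate 3 lay lowest of its group but still at nearly 2 times the highest 4HBP library. The log2 fold change was -1.61 ± 0.27 (adjusted p = 0.0128). A microRNA gene, Mir7011, is annotated over 73 bases of its exons on the same strand. Only reads over those bases, in libraries of poly(A) RNA, could be shared between the annotations.

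The 3 plexins that passed did not share a direction. Plxnb1 (ENSMUSG00000053646.13, chr9:109095389-109119917), the receptor of Sema4d, had 249, 306 and 238 CPM with vehicle and 183, 174 and 189 CPM with 4HBP, without overlap, and fell by 0.57 ± 0.10 on the log2 scale (adjusted p = 0.0145). Plxna3 (ENSMUSG00000031398.13, chrX:74329066-74344689), which works with neuropilin-2 in class 3 semaphorin signalling, had 50.9, 58.2 and 48.3 CPM and then 39.9, 40.7 and 41.7 CPM, a fall of 0.40 ± 0.09 (adjusted p = 0.0287). Plxna1 (ENSMUSG00000030084.11, chr6:89316314-89362620), which pairs with neuropilin-1, had 107, 110 and 113 CPM with vehicle and 141, 147 and 182 CPM with 4HBP, a rise of 0.48 ± 0.09 (adjusted p = 0.0175). In Plxna1 the 4HBP replicate 3 stood apart upward, and the other 4HBP libraries were still above all vehicle libraries. Plxnb1 and Plxna1 each have a gene annotated on the opposite strand over part of their exons (Gm7628 over 257 bases and Gm26811 over 191 bases), and the strand setting of the counting is not given in the sources used here.

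Ephb3 (ENSMUSG00000005958.14, chr16:21204755-21223305), a receptor of B-type ephrins on progenitors, was the only one of 10 Eph receptors tested to pass. It had 21.8, 21.5 and 20.7 CPM with vehicle and 15.8, 16.0 and 14.7 CPM with 4HBP, which is a narrow spread in both groups with no overlap. The log2 fold change was -0.49 ± 0.10 (adjusted p = 0.0235). Families with 0 members past the edgeR test were the ephrins (1 of 8 at an unadjusted p under 0.05), the Unc5 receptors (0 of 4), the neuropilins (0 of 2), the tested Robos (1 of 2) and Dcc (0 of 1), and DESeq2 also called 0 in each of these.

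**Figure D3:**
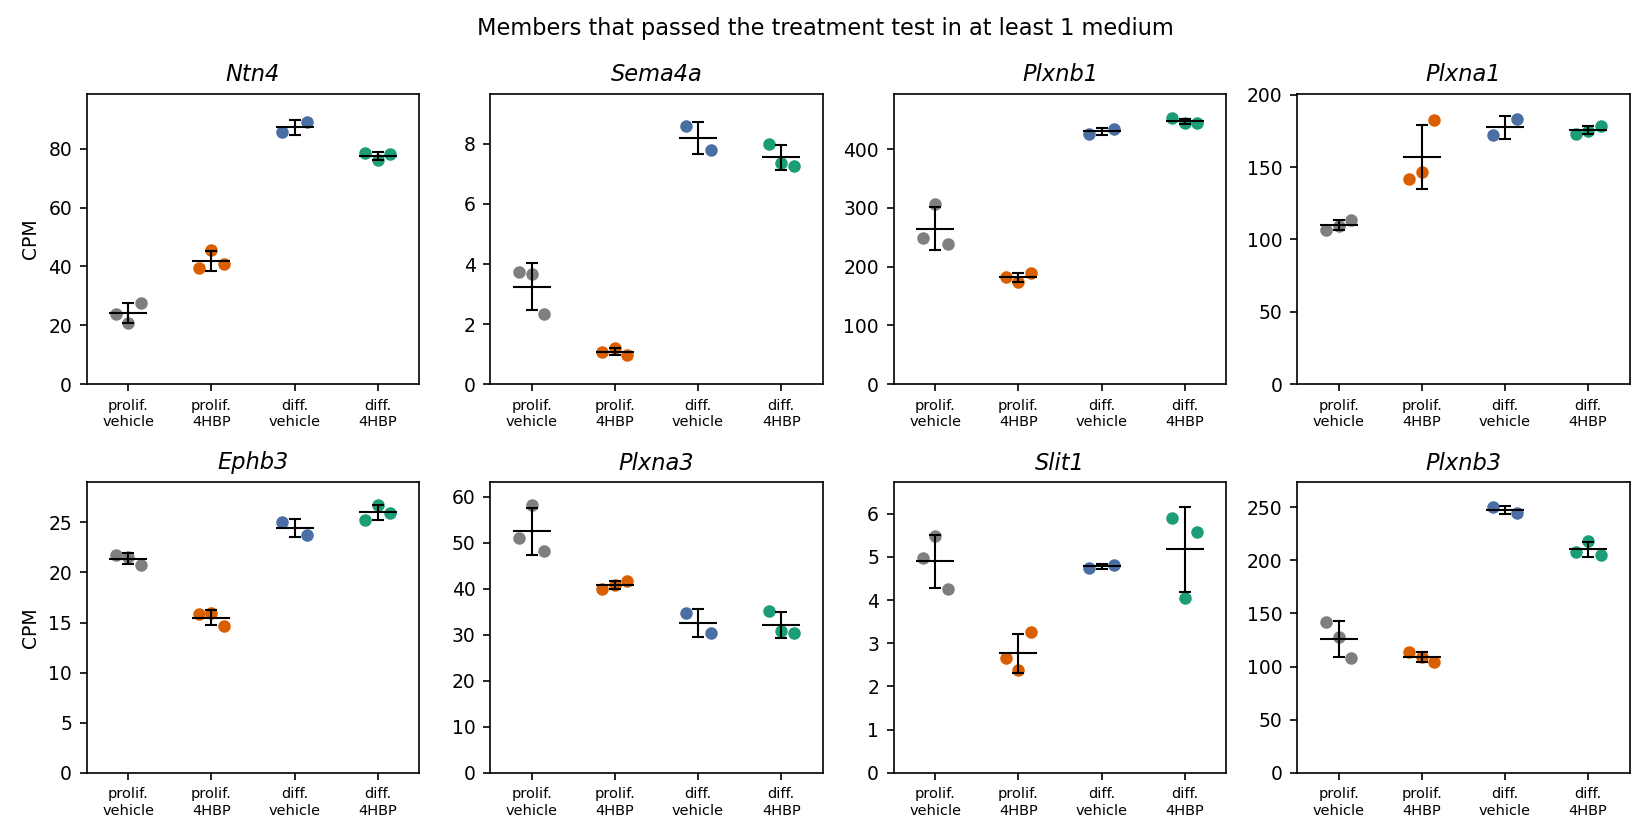
CPM of the 8 members that passed the treatment test in at least 1 medium (y axis from 0), 1 point per library, with the mean and SD of each of the 4 groups. The 4HBP libraries of proliferation medium lie above the vehicle libraries for Ntn4 and Plxna1 and below them for Sema4a, Plxnb1, Ephb3, Plxna3 and Slit1, and Plxnb3 is lower with 4HBP in differentiation medium without overlap.

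Some members lay close to the threshold without passing it. Plxnd1 had a log2 fold change of -0.55 ± 0.14 (adjusted p = 0.0508), Sema5a of -0.41 ± 0.12 (adjusted p = 0.0744) and Sema3c of 1.01 ± 0.32 (adjusted p = 0.0874), and in each the groups did not overlap. Replicate 3 of the 4HBP group stood apart from replicates 1 and 2 for Plxnd1 (85.8 against 126 and 123 CPM), and also for Epha5 (117 against 49.7 and 57.7 CPM), Dcc (34.7 against 19.7 and 19.4 CPM), Epha4 (59.8 against 41.6 and 34.1 CPM) and Robo1 (58.4 against 41.0 and 36.0 CPM). This library also had the lowest dividing-cell sum (318 CPM, against 514 and 613 CPM) and the lowest oligodendrocyte lineage sum (2456 CPM, against 3753 and 3514 CPM) of its group. Without it 9 members passed.

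The calls in proliferation medium depended on single libraries. Without vehicle replicate 1, 0 members passed the edgeR test (12 at an unadjusted p under 0.05), with adjusted p values from 0.0583 for Plxnb1 and 0.0601 for Ntn4 to 0.117 for Slit1. Without vehicle replicate 2 only Ntn4 and Plxnb1 passed, and without 4HBP replicate 2 only Ntn4, Plxna1 and Sema4a. Without 4HBP replicate 1, Plxna3 and Slit1 did not pass (adjusted p = 0.0730 and 0.0741). Leaving out a library never changed the direction of any of the 7, and Ntn4 passed in 5 of the 6 such fits. The share of all genes called also fell, to 0.729% and 0.933% without vehicle replicates 1 and 2. By limma on log2(CPM + 1) 0 members passed (13 at an unadjusted p under 0.05), and by the study's rule, limma's unadjusted p under 0.05 with a log2 fold change over 0.58 in size, Ntn4, Sema3c, Sema4a and Slit1 passed, 4 members beside 2.12% of all genes.

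Astrocyte markers moved with the same comparison. They summed to 8121 to 9229 CPM with vehicle and 6377 to 7362 CPM with 4HBP, and Gfap, Aqp4, Gja1 and Aldoc, 4 of the 8, were lower. Dividing-cell markers summed to 621 to 779 CPM with vehicle and 318 to 613 CPM with 4HBP, with 0 of 5 past the edgeR test (2 at an unadjusted p under 0.05, and 1 by DESeq2). Of the other lists, 0 of 8 NSC, 0 of 9 neuron and 0 of 9 oligodendrocyte lineage markers passed (2, 0 and 4 at an unadjusted p under 0.05, and 1, 0 and 1 by DESeq2). The part of these markers in the members' changes was not tested.

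In differentiation medium 2 of 61 members tested passed, both lower with 4HBP, or 3.28% beside 2.56% of 15484 genes (1.3% lower). Plxnb3 (ENSMUSG00000031385.14, chrX:73757090-73772514), a receptor of Sema5a, had 250 and 244 CPM with vehicle and 208, 218 and 205 CPM with 4HBP. All 3 4HBP libraries lay below both vehicle libraries. The log2 fold change was -0.23 ± 0.04 (adjusted p = 0.00387). Ntn4 had 85.5 and 89.0 CPM with vehicle and 78.4, 76.1 and 78.0 CPM with 4HBP, again without overlap, and fell by 0.16 ± 0.04 on the log2 scale (adjusted p = 0.0487). Groups did not overlap for 30 of the 68 members, or 29 of the 61 tested, beside 33.0% of the genes tested, and 12 of 61 members had an unadjusted p under 0.05. Both called effects were under 0.3 on the log2 scale. Plxnb3 passed in 4 of the 5 fits that left out a library and did not pass without vehicle replicate 1 (adjusted p = 0.0841). Ntn4 passed in 0 of 5, with adjusted p values from 0.0926 to 0.287. In the fit of all 11 libraries 0 members passed here (1 at an unadjusted p under 0.05), beside 0.0% of all genes, and DESeq2 called 1, Plxnb3. By the study's rule as rerun here 0 members passed in differentiation medium, beside 49 of 27295 genes above 0 in any library (0.18%). The paper reports more differential genes in this medium, so its list was not reproduced. By limma's adjusted p 0 members passed as well (18 at an unadjusted p under 0.05). Of the marker lists, 1 of 8 NSC and 1 of 5 dividing-cell markers passed by edgeR in this comparison, both higher with 4HBP. The dividing-cell marker was Ccnb1, close to the threshold (edgeR adjusted p = 0.0476), and DESeq2 called 2 NSC and 0 dividing-cell markers. By edgeR 0 of 8 astrocyte, 0 of 9 neuron and 0 of 9 oligodendrocyte lineage markers passed (3, 2 and 2 at an unadjusted p under 0.05, and 0 in each by DESeq2). The part of these markers in the members' values was not tested. The biological coefficient of variation was 0.117 among proliferation libraries, 0.0368 among differentiation libraries and 0.0907 over all 11.

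Whether 4HBP acted differently in the media was tested as the effect in proliferation medium minus that in differentiation medium. The fit of all 11 libraries was used, whose shared biological coefficient of variation (0.0907) was below that of proliferation libraries alone (0.117). The p-values of this test may therefore understate the spread in proliferation medium. Of 62 members 5 passed, 2 with a positive and 3 with a negative difference, or 8.06% beside 4.49% of all 15920 genes (2.01% positive and 2.48% negative). For Ntn4 the difference was 0.92 ± 0.13 on the log2 scale (adjusted p = 0.00351), since 4HBP went with a higher level in proliferation medium and a slightly lower one in differentiation medium. It passed in all 11 fits that left out 1 library. Sema4a had a difference of -1.51 ± 0.28 (adjusted p = 0.0109) and Plxnb1 of -0.64 ± 0.12 (adjusted p = 0.0119). The other members with a difference between the media were Ephb3, at -0.60 ± 0.11 (adjusted p = 0.0109), and Plxna1, at 0.48 ± 0.11 (adjusted p = 0.0270). For Sema4a, Plxnb1, Ephb3 and Plxna1 the effect within differentiation medium was near 0 and did not pass, at -0.11, 0.06, 0.10 and -0.01 on the log2 scale. Leaving out vehicle replicate 1 or 2 of differentiation medium left Ntn4 as the only member past the threshold, with adjusted p values of the other 4 between 0.0580 and 0.138. Plxna1 passed in 4 of the 11 such fits. Plxna3 and Slit1, which passed in proliferation medium, did not pass the test of the difference (adjusted p = 0.0986 and 0.0580).

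**Figure D4:**
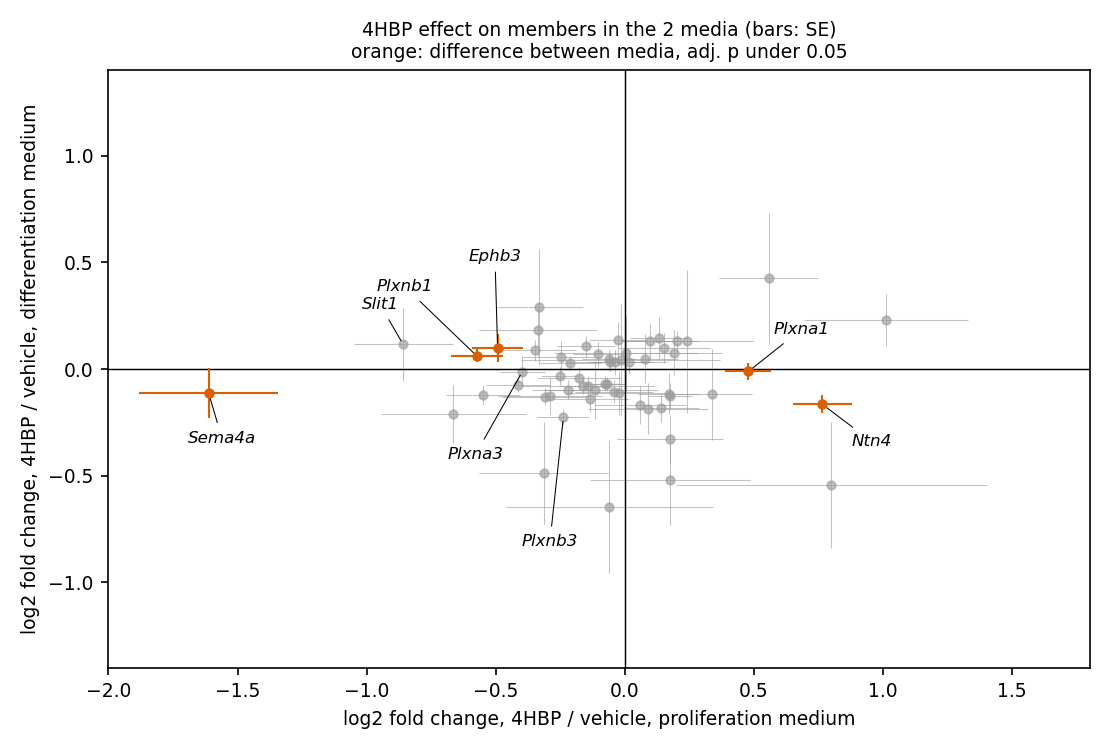
Log2 fold change with 4HBP in proliferation medium (x axis) against that in differentiation medium (y axis) for members tested in both, with SE bars and gene names at the members that passed a test. The 5 orange points passed the test of the difference between media: Ntn4 and Plxna1 lie right of 0 and Sema4a, Plxnb1 and Ephb3 left of it, all close to 0 on the y axis.

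Other genes of the pathway were read from 4 lists. Of 26 co-receptors and further cues, 5 passed in proliferation medium with 4HBP, 2 higher and 3 lower (7.43% of all genes): of the 4 with the smallest p, the adhesion molecule Chl1 rose by 0.47 ± 0.09, while the secreted Draxin, which binds Dcc, fell from a mean of 41.0 to 17.1 CPM, Sdc3 by 0.55 ± 0.12 and the netrin-G ligand Lrrc4c by 0.46 ± 0.10 on the log2 scale. Of 27 tested semaphorin and plexin effectors 0 passed by edgeR (9 at an unadjusted p under 0.05, and 4 by DESeq2). Of 22 Eph and ephrin effectors 3 passed: the adaptor Grb10 rose by 1.94 ± 0.19, from a mean of 10.9 to 43.0 CPM (adjusted p = 0.00230), and Chn2 and Sipa1l1 fell by 0.40 ± 0.09 and 0.34 ± 0.08. Of 23 Slit and netrin effectors 2 passed, among them Wasl, which rose by 0.31 ± 0.08 on the log2 scale.

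In differentiation medium with 4HBP 2 of 25 tested co-receptors and cues passed (2.56% of all genes), the axonal adhesion molecule Nfasc falling by 0.14 ± 0.03 and Sdc3 rising by 0.15 ± 0.04 on the log2 scale. Of 27 semaphorin and plexin effectors 3 passed, with Mical2 falling by 0.34 ± 0.05, Farp1 falling by 0.16 ± 0.03 and the small GTPase Rnd3 rising by 0.27 ± 0.06. By edgeR 0 of 22 Eph and ephrin effectors and 0 of 23 Slit and netrin effectors passed (3 and 6 at an unadjusted p under 0.05, and 0 and 1 by DESeq2). The difference of the 4HBP effect between the media passed for 4 of 26, 0 of 27 (7 at an unadjusted p under 0.05, and 1 by DESeq2), 1 of 22 and 1 of 23 genes of the lists in the same order, beside 4.49% of all genes.

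Between the media in vehicle cultures most genes of these lists passed, as did 61.4% of all genes. Of the co-receptors and cues 23 of 26 passed, 12 higher and 11 lower in differentiation medium, of the semaphorin and plexin effectors 25 of 27 (18 higher, 7 lower), of the Eph and ephrin effectors 14 of 22 (8 higher, 6 lower) and of the Slit and netrin effectors 17 of 23 (7 higher, 10 lower). Mical2, an oxidase that disassembles actin, rose by 3.06 on the log2 scale, from a mean of 7.82 to 69.5 CPM, and Farp1 by 1.32. Chl1 fell by 2.27, from a mean of 125 to 27.7 CPM, and Srgap2, a Slit-Robo GTPase activating protein, by 1.28. Draxin, named here after its values were seen, was lower in differentiation medium in vehicle cultures (-1.72, adjusted p = 6.56e-05) and did not pass in 4HBP cultures (-0.15, adjusted p = 0.579). Its means in proliferation and differentiation medium were 17.1 and 15.8 CPM in 4HBP cultures, and 41.0 and 13.2 CPM in vehicle cultures.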

How the data were processed

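The authors trimmed paired reads of poly(A) RNA, prepared with a stranded kit, with cutadapt after FastQC 0.11.5 (versions per the submitters' processing notes and the published methods), and quantified them with RSEM 1.3.0 and Bowtie2 2.2.9 against mm10 (GRCm38) with GENCODE vM17. The deposited tables give, per library, RSEM's expected counts without normalization, TPM values scaled by the authors for gene length and depth, and FPKM values, which the authors deposited and which were not used here. Of the expected counts above 0, 18.6% were not whole. Gene symbols and exons came from GENCODE vM21, with 99.7% of identifiers matched without version; the identifier of Ntn3 there was not matched. CPM are expected counts scaled to a common library total.

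For tests, expected counts were rounded, filtered by filterByExpr, normalized by TMM and fitted by edgeR 4.0.16 quasi-likelihood in R 4.3.3, with Benjamini-Hochberg adjustment over all genes tested and a threshold of 0.05. Treatments were compared within each medium (6 and 5 libraries), as the study did, since the spread differed between media. Media and the interaction were compared in a fit of all 11 libraries with 4 group means, which shares its estimate of spread between the media. Alternatives used DESeq2 1.42.0 and limma 3.58.1 on log2(CPM + 1) of 27295 genes above 0 in any library, the study's tool and scale. Other alternatives changed the normalization, the filter, the libraries fitted, a replicate block and each library in turn. Pairs of libraries with identical values numbered 0. The members and lists were chosen with earlier results of these data known. Named with values were the members past a treatment test (at most 15 by p) or the interaction test, the 12 largest changes in each direction that passed both medium comparisons without overlap, the top 3 by mean TPM in each family, others to complete a family, and at most 4 genes of each pathway list by p. Of the pathway lists Grb4 was not matched. Some genes of the pathway and marker lists are counted but not reported by name here. The fits were tested on simulated data. Counting limits cover counting error only.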

Additional observations from a re-analysis of the deposited data

Results flagged for a closer look

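The effect of 4HBP differed between proliferation and differentiation medium for 5 members by edgeR's interaction test, which singled them out here, given as the log2 effect in proliferation medium minus that in differentiation medium. The difference was 0.92 for Ntn4 (adjusted p = 0.00351), 0.48 for Plxna1 (adjusted p = 0.0270), -0.60 for Ephb3 (adjusted p = 0.0109), -0.64 for Plxnb1 (adjusted p = 0.0119) and -1.51 for Sema4a (adjusted p = 0.0109). Without vehicle replicate 1 or 2 of differentiation medium Ephb3, Plxna1, Plxnb1 and Sema4a did not pass, and Plxna1 passed in 4 of the 11 fits that left out 1 library, whereas Ntn4 passed in all 11. The interaction test used a spread shared by both media, which was smaller than that of the proliferation libraries alone. Groups of 2 or 3 libraries were not tested for single outlying libraries.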

How the results depend on the processing

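The members that passed a treatment or interaction test, and those with the 12 largest changes in each direction between the media, did not change direction under the alternatives run; other members were not followed singly. Between the media the counts of 46 and 50 members stayed within 1.5 times under all alternatives, at 42 to 51 in vehicle and 47 to 52 in 4HBP cultures. In proliferation medium the count of 7 became 12 with all 11 libraries in 1 fit (16.8% of all genes), 0 by limma on log2(CPM + 1) at an adjusted p under 0.05 (13 at an unadjusted p under 0.05, with 0.245% of all genes called) and 4 by the study's rule of unadjusted p under 0.05 and a log2 change over 0.58 (Ntn4, Sema3c, Sema4a and Slit1, beside 2.12% of all genes). DESeq2 gave 9. In differentiation medium the count of 2 became 1 by DESeq2 and with DESeq2's size factors (Plxnb3), 0 with all 11 libraries in 1 fit, 0 by limma (18 at an unadjusted p under 0.05) and 0 by the study's rule. For the interaction the count of 5 became 2 by limma (Ephb3 and Ntn4) and 10 without a filter on low counts. The cause was not tested for any of these. Leaving out 1 library in turn gave 0 to 9 members in proliferation medium, 0 to 1 in differentiation medium and 1 to 7 for the interaction.

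Replicate numbers did not pair the libraries: same-numbered libraries had correlations of their deviations from the group means between -0.127 and 0.0831. With that number fitted as a block, 5 members passed in proliferation medium (Ephb3, Plxna3 and Slit1 no longer did, at adjusted p of 0.0599, 0.0618 and 0.0817, and Sema5a now did, at 0.0359), 4 in differentiation medium (Sema3d and Unc5a in addition), 46 and 50 between the media and 5 for the interaction.

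Depth limits the 6 members too low for the test on all libraries. With 2 or 3 libraries a group, a member that missed the threshold is not shown to be the same.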
